A study of Mus musculus with 6 samples.

Results

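Semaphorins, plexins and neuropilins are the ligands, receptors and co-receptors of a large axon guidance family, and their transcripts were examined here in the ventral forebrain of mouse embryos with and without Olig2. The members were 31 genes listed by symbol: 20 semaphorins, 9 plexins and 2 neuropilins. The list was chosen with earlier results of these data known. They were found on the arrays as the 78 probe sets, of 45037 non-control probe sets, whose platform annotation gives exactly 1 gene symbol and gives it from these 31. All 31 genes had such a probe set, among 18193 genes named this way. A probe set entered the test if at least 3 of the 6 arrays, of either genotype, read above their own median there. This left 55 probe sets of 28 members, and the value of a gene below is that of its brightest kept probe set unless another is named. Probe sets of 1 gene share the same RNA and are no replicates.

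The groups were Olig2-/- embryos and Olig2+/+ embryos at E13.5. Olig2 is a basic helix-loop-helix transcription factor of ventral neural progenitors. Each array carried RNA pooled from 3 brains, and 3 arrays per genotype were analysed, numbered 2, 4 and 5 for the knockout and 1, 4 and 5 for the wild type. The sources used here do not describe the knockout allele or the strain, and the tissue is named as ventral telencephalon or ventral forebrain. Values are log2 expression levels, so a difference of 1 is a doubling. The p-values measure only the spread between these 6 pools, and their number limits the precision of each value.

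Semaphorins are secreted or membrane-bound proteins that steer growing axons and migrating neurons, mostly by repulsion. Plexins receive them and act on small GTPases inside the cell. The secreted class 3 semaphorins mostly need a neuropilin as the binding partner of a plexin. Classes 4 to 7 are held at the membrane and mostly bind plexins directly. In the ventral forebrain these cues are known for guiding cortical interneurons around the striatum and for sorting axons that run between thalamus and cortex.

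Olig2 itself read 7.48, 7.53 and 7.76 on knockout replicates 2, 4 and 5 and 8.20, 8.22 and 8.42 on wild-type replicates 1, 4 and 5. It was lower on every knockout array. The sources used here do not say whether this probe set covers deleted sequence, so its level is a check of direction only. Of 12 markers fixed for the ventral telencephalon, 9 were kept, and Nkx2-1 was not. Pallial (10 of 12) and thalamic (12 of 12) marker genes were kept too. Array-to-array correlations over all probe sets ran from 0.990 to 0.998, and no 2 arrays were identical.

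No member passed the test across all probe sets. Of 22565 kept probe sets, limma called 0 at a Benjamini-Hochberg adjusted p of 0.05, that is 0% of them, with 2121 at an unadjusted p under 0.05. The lowest adjusted p among the members was 0.511. Everything below is therefore a description of levels and differences that did not pass, with limma's unadjusted p given where it helps to rank them. In such bulk RNA, fewer cells of a type and less RNA per cell cannot be told apart.

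Of the 28 members, 19 were lower and 9 higher in the knockout, with a median log2 difference of -0.12. Over all 10630 genes represented the same way, 50.6% were lower and the median was 0. The lean of the members towards lower values came with wild-type replicate 1. That array gave the highest of the 6 values for 14 of the 28 members (50%), against 31.4% of all genes. Without it 13 members were lower and 15 higher, the median was 0.01, and 46.4% of members were lower against 48.5% of all genes. The 6 members that turned to a higher value were Sema4a, Sema4d, Sema6b, Sema6d, Sema7a and Plxnc1, all within 0.06 of 0 without that array.

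**Figure D1:**
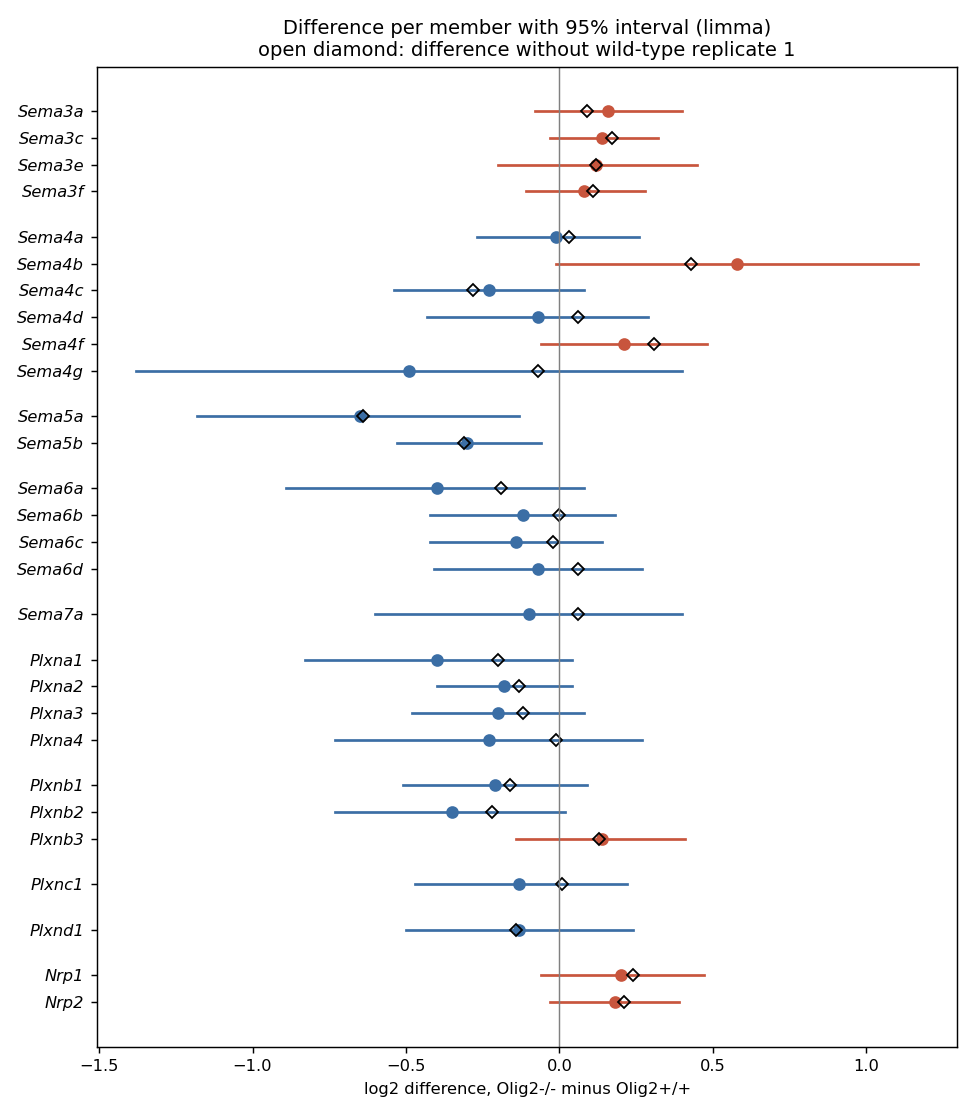
Log2 difference (Olig2-/- minus Olig2+/+, x axis) of the 28 kept members, ordered by class from top to bottom. Filled circles are the differences over 6 arrays with limma's 95% intervals (red higher and blue lower in the knockout), and open diamonds the differences without wild-type replicate 1. Class 3 semaphorins and neuropilins lie to the right of 0, class 5 and 6 semaphorins and A plexins to the left, and the diamonds of class 6 and the A plexins lie nearer 0.

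The genotypes did not overlap for 9 members, which are 32.1% of the 28, against 16.4% of all genes. Among all genes 8.45% lay wholly higher and 7.96% wholly lower in the knockout. The members wholly higher were Sema3c, Sema4b and Nrp2, and those wholly lower were Sema4c, Sema5a, Sema5b, Sema6a, Plxna1 and Plxna2. At an unadjusted p under 0.05 there were 2 members (7.14%), against 7.90% of all genes, so this share was near the background. Those 2 were Sema5a and Sema5b. Single arrays moved this count. It was 1 (3.57%) when knockout replicate 4 or wild-type replicate 5 was left out, where 4.65% and 6.18% of all genes were counted. It was 4 (14.3%, against 7.33% of all genes) when knockout replicate 2 was left out and 5 (17.9%, against 13.6%) when wild-type replicate 4 was left out.

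**Figure D2:**
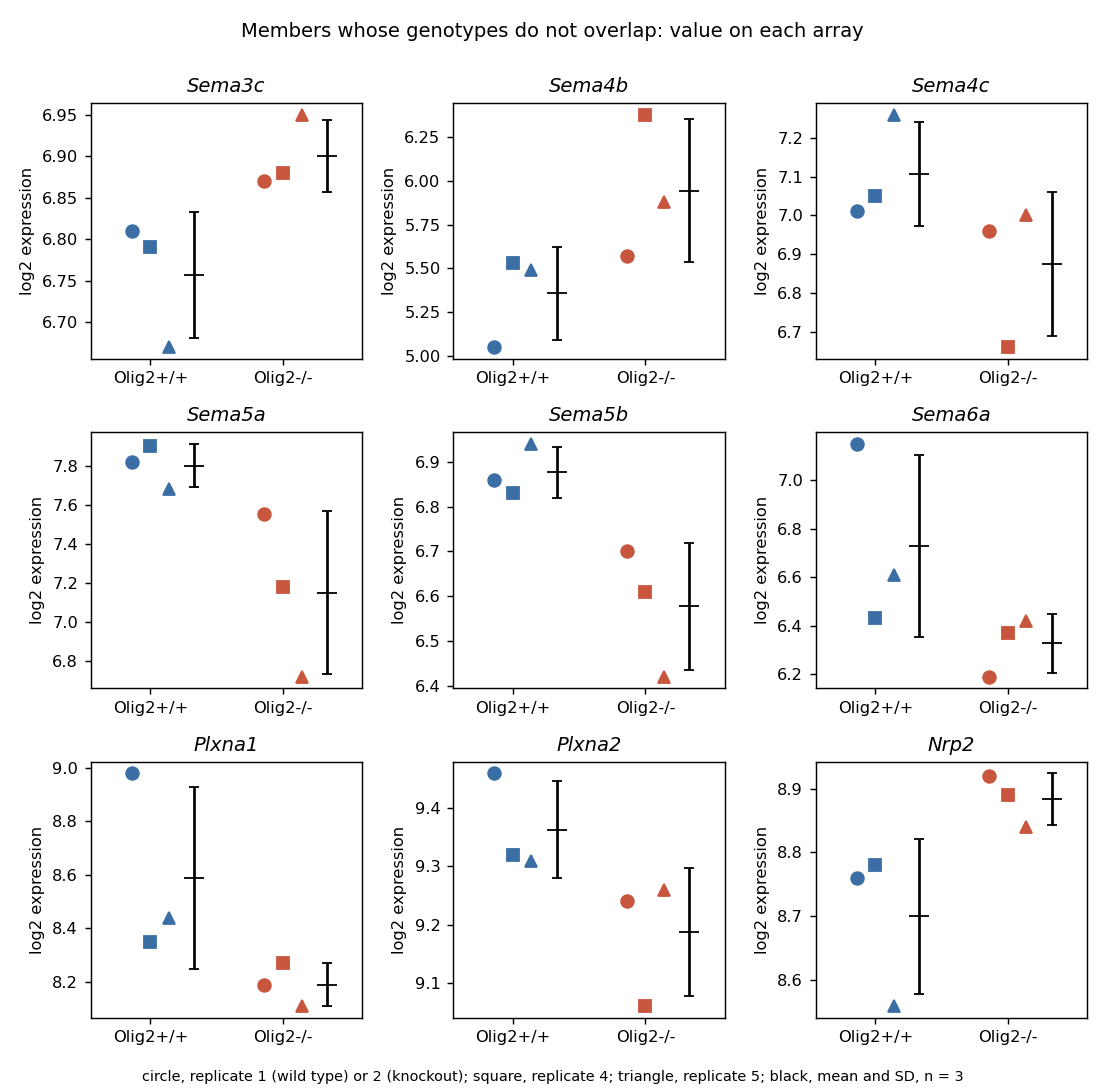
Log2 expression (y axis, a separate range for each gene) on each array for the 9 members whose genotypes did not overlap. Blue points are Olig2+/+ and red points Olig2-/- arrays, with the shape giving the replicate number, and black bars are the mean and SD of 3 arrays. Sema5a and Sema5b are lowest on knockout replicate 5, and Sema6a, Plxna1 and Plxna2 are highest on wild-type replicate 1.

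Class 5 had the largest mean difference of the classes (-0.47), and Sema5a the largest of any member's brightest probe set. Sema5a and Sema5b are transmembrane semaphorins with thrombospondin repeats that can attract or repel axons depending on the setting. Sema5a read 7.82, 7.90 and 7.68 on wild-type replicates 1, 4 and 5 and 7.55, 7.18 and 6.72 on knockout replicates 2, 4 and 5. The wild-type arrays lay close together, and the knockout arrays spread downwards, with replicate 5 the lowest. The log2 difference was -0.65 (SE 0.21, 95% interval -1.18 to -0.13), a 1.57-fold lower level (limma, unadjusted p = 0.0232, adjusted p = 0.511). A second, dimmer probe set of Sema5a differed by only -0.10, with overlapping genotypes.

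Sema5b gave the same order of genotypes at both of its kept probe sets. The brighter read 6.86, 6.83 and 6.94 on wild-type replicates 1, 4 and 5 and 6.70, 6.61 and 6.42 on knockout replicates 2, 4 and 5. Again every knockout array was lower, and replicate 5 was the lowest. The log2 difference was -0.30 (SE 0.10, 95% interval -0.53 to -0.06; limma, unadjusted p = 0.0210, adjusted p = 0.511). The dimmer probe set read 6.76, 6.19 and 6.72 in the wild type and 5.91, 6.17 and 5.45 in the knockout in the same order of replicates. The arrays of replicate 4 almost met, and the difference was -0.72 (SE 0.24). Without wild-type replicate 1, Sema5a differed by -0.64 and Sema5b by -0.31, close to their values over all arrays.

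The RefSeq start regions of both class 5 genes are shown because these were the members with the lowest p, beside that of Plxnc1, whose probe sets mostly went the other way. Each window runs from 250 bases before to 50 bases after the annotated gene start in GRCm38.p6, on the gene's own strand. Sema5a lies at chr15:32244563-32244862 on the plus strand, Sema5b at chr16:35541112-35541411 on the plus strand and Plxnc1 at chr10:94944796-94945095 on the minus strand. Capitals mark CANNTG, the E-box that basic helix-loop-helix factors such as Olig2 bind, which reads the same on both strands.
Sema5a: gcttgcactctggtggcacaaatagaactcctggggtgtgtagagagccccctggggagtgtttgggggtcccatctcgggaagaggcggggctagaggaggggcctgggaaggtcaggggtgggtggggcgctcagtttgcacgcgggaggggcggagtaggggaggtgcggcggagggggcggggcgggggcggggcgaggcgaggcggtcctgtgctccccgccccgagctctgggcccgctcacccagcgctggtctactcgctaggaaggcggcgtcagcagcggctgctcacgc
Sema5b: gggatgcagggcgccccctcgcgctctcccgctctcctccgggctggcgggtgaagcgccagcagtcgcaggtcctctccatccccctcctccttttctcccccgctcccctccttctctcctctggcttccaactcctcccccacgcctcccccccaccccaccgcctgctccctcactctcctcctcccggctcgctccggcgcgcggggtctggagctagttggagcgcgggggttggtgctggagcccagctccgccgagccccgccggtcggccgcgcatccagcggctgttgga
Plxnc1: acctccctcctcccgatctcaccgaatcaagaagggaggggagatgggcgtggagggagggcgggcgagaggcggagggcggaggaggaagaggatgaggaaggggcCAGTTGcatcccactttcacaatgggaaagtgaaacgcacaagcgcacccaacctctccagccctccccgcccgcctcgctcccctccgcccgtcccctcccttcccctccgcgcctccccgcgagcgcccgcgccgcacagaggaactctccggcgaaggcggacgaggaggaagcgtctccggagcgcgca

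Neither class 5 window held a CANNTG match, and that of Plxnc1 held 1, CAGTTG, at position -143 relative to the gene start. Of 32851 windows of 300 bases in the RefSeq table, 72.3% held at least 1 CANNTG. Among the members 26 matched the table by symbol, with 37 windows, and 21 of these held CANNTG (56.8%). The narrower E-box CAGCTG, which is contained in CANNTG, stood in 6 of the 37 windows (16.2%) and in 16.3% of all windows. A match is a description of these letters and not a site of binding, and its absence says only that they are not in these 300 bases.

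Thalamic marker genes were lower in the knockout beside class 5. Of the 12 thalamic genes listed, 9 were lower, with a median of -0.54, and their summed linear level ran from 2801 to 3535 in the knockout and from 3757 to 4260 in the wild type. Their mean deviation from each gene's mean over the 6 arrays was -0.50, -0.14 and -0.07 on knockout replicates 2, 4 and 5, and that of the class 5 genes was 0.03, -0.21 and -0.53. The array lowest for the thalamic genes, replicate 2, was thus the highest knockout array for class 5. The part of thalamic tissue in the class 5 difference was not tested.

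The 4 kept class 3 semaphorins were all higher in the knockout, by small amounts. These are the secreted semaphorins of the set. Sema3c, a ligand of both neuropilins, read 6.81, 6.79 and 6.67 on wild-type replicates 1, 4 and 5 and 6.87, 6.88 and 6.95 on knockout replicates 2, 4 and 5. Its genotypes did not overlap, yet they were separated by a narrow gap, and the log2 difference was 0.14 (SE 0.07, 95% interval -0.03 to 0.32). A second probe set differed by 0.01. Sema3a, the archetypal growth cone collapsing factor, differed by 0.16 (SE 0.10) and 0.03 at its probe sets, and Sema3f, which signals through Nrp2, by 0.08 and -0.01. The brighter Sema3f probe set read 4.24, 4.05 and 4.24 in the wild type and 4.24, 4.30 and 4.24 in the knockout. Without wild-type replicate 4 it differed by 0.02.

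Sema3e, which can bind Plxnd1 without a neuropilin, depended on the probe set. Its brightest differed by 0.12 because knockout replicate 2 alone stood out, at 4.79 against 4.33 to 4.40 on the other arrays. The next read 3.89, 4.29 and 4.02 on wild-type replicates 1, 4 and 5 and 4.34, 4.89 and 4.73 on knockout replicates 2, 4 and 5. There every knockout array was higher, by 0.58 on average (SE 0.18, 95% interval 0.15 to 1.02; limma, unadjusted p = 0.0166, adjusted p = 0.511). Without knockout replicate 2 and wild-type replicate 4 that difference was 0.85, and the brightest probe set gave -0.02.

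Averaged over the 4 genes, class 3 lay at 0.15, 0.01 and 0.03 on knockout replicates 2, 4 and 5 and between -0.07 and -0.06 on the wild-type arrays. Meningeal and mesenchymal markers also stood high on knockout replicate 2. Their 3 kept genes, Col3a1, Prrx1 and Pdgfra, lay on average 2.26 above the other knockout arrays. Col3a1 read 8.10 there, against 4.04 and 4.09 on knockout replicates 4 and 5, Prrx1 6.15 against 4.98 and 5.01, and Pdgfra 5.78 against 4.05 and 4.36. Between the genotypes the 3 differed by 0.33, 0.40 and -1.04. The summed linear level of all 12 listed genes ran from 113 to 552 in the knockout and from 147 to 251 in the wild type. Col1a1, Col1a2, Dcn, Lum, Ogn, Foxc1, Foxc2, Twist1 and Cyp1b1 were below the filter. The 3 kept genes were high on wild-type replicate 1 as well, on average 0.90 above the other wild-type arrays. On that array class 3 was at -0.07 and did not stand out. The part of such cells in the class 3 values was not tested. Sema3b, Sema3d and Sema3g, the remaining class 3 members, were not kept. All probe sets of Sema3b and Sema3d read at most 2.40 on every array, near the lowest value of the table, 2.27. Sema3g, a ligand known from arteries, read 3.33, 3.07 and 3.13 in the wild type and 2.68, 3.19 and 2.97 in the knockout, with overlap.

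Class 4 semaphorins, membrane ligands mostly of B plexins, went both ways, with 2 higher and 4 lower. Sema4b read 5.05, 5.53 and 5.49 on wild-type replicates 1, 4 and 5 and 5.57, 6.38 and 5.88 on knockout replicates 2, 4 and 5. The lowest knockout array and the highest wild-type array nearly touched, and the log2 difference was 0.58 (SE 0.24, 95% interval -0.01 to 1.17), a 1.5-fold higher level. Sema4c, a ligand of Plxnb2, read 7.01, 7.05 and 7.26 in the wild type and 6.96, 6.66 and 7.0 in the knockout, again without overlap, and differed by -0.23 (SE 0.12). Sema4f differed by 0.21 at its brightest probe set and by -0.06 at a dimmer one.

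The remaining class 4 members did not separate the genotypes. Sema4d, the ligand of Plxnb1, differed by -0.07 (SE 0.15), and Sema4a by -0.01 and -0.11 at its probe sets. Sema4g differed by -0.49 (SE 0.36) because of wild-type replicate 1, which read 7.08 against 5.65 to 6.00 on the other 5 arrays. Without that array the difference was -0.07. The brightest probe sets of Sema4a, Sema4f and Sema3f carry the suffix _x_at, and 1 dimmer probe set of Plxnc1 carries another, _s_at. Both suffixes mark probes that may match other transcripts, so the signal may not be specific.

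Class 6 semaphorins, transmembrane ligands of A plexins, were all lower, and wild-type replicate 1 was the highest array for each of the 4. Sema6a, which guides thalamocortical axons, read 7.15, 6.43 and 6.61 on wild-type replicates 1, 4 and 5 and 6.19, 6.37 and 6.42 on knockout replicates 2, 4 and 5. The genotypes did not overlap, though wild-type replicate 4 lay only just above the knockout. The log2 difference was -0.40 (SE 0.20, 95% interval -0.89 to 0.08), and -0.19 without wild-type replicate 1. A second probe set differed by -0.03. Sema6d, a ligand of Plxna1, differed by -0.07 at its brightest probe set and by 0.14 and 0.06 at others. Sema6b and Sema6c were dim and differed by -0.12 and -0.14, and by 0 and -0.02 without that array.

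Sema7a, the glycolipid-anchored class 7 member and a ligand of Plxnc1 and integrins, differed by -0.10 (SE 0.20). It read 5.38, 5.03 and 4.74 in the wild type and 4.67, 5.01 and 5.16 in the knockout, so the genotypes overlapped widely.

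Among the receptors, the 4 A plexins were all lower in the knockout. They transduce class 3 signals with neuropilins and class 6 signals alone. Plxna1 read 8.98, 8.35 and 8.44 on wild-type replicates 1, 4 and 5 and 8.19, 8.27 and 8.11 on knockout replicates 2, 4 and 5. The genotypes did not overlap, with wild-type replicate 1 far above the rest. The log2 difference was -0.40 (SE 0.18, 95% interval -0.83 to 0.04), and -0.20 without that array.

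Plxna2, a receptor of Sema6a, read 9.46, 9.32 and 9.31 in the wild type and 9.24, 9.06 and 9.26 in the knockout, a difference of -0.18 (SE 0.09) without overlap. Its 3 other kept probe sets differed by -0.63, -0.47 and -0.02, each with overlap. At the first of these knockout replicate 2 read 9.30 and the other knockout arrays 8.35 and 8.34, against 9.44, 9.36 and 9.06 in the wild type. Plxna3, which pairs with Nrp2 for Sema3f, differed by -0.20 and -0.13 at its probe sets. Plxna4, a receptor of Sema3a and Sema6a, differed by -0.23, and by -0.01 without wild-type replicate 1.

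**Figure D3:**
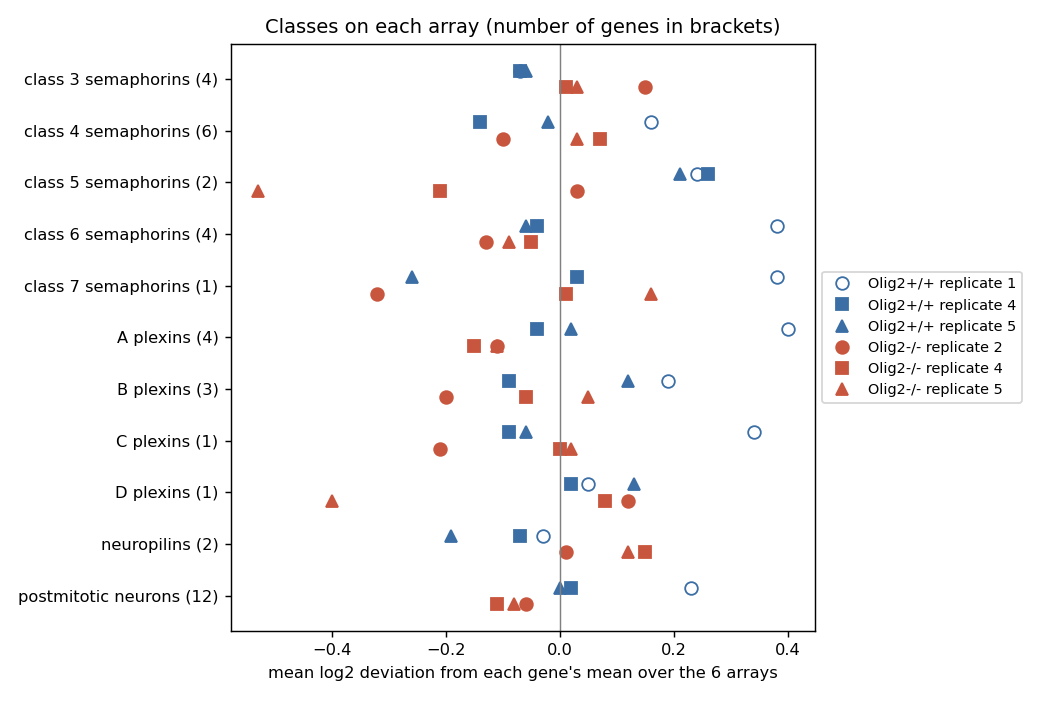
Mean deviation (log2, x axis) of each class from its genes' means over the 6 arrays, with 1 point per array, blue for Olig2+/+ and red for Olig2-/-, and wild-type replicate 1 as an open circle. The bottom line shows 12 neuronal marker genes for comparison. The open circle lies far to the right for class 6 (0.38) and the A plexins (0.40), as it does for the neuronal markers (0.23), and among the other wild-type arrays for class 5.

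Several marker lists stood apart on the same array, neuronal markers among them. Against the other wild-type arrays, the markers of the ventral telencephalon lay 0.20 higher, those of meninges and mesenchyme 0.90 higher and those of erythroid cells at -0.53. Of 12 markers of postmitotic neurons, 11 were lower in the knockout, with a median of -0.10. Their mean on wild-type replicate 1 lay 0.22 above the other wild-type arrays, while that of the A plexins lay 0.41 and that of class 6 lay 0.43 above. The summed linear level of the 12 neuronal genes ran from 26013 to 31514 in the wild type and from 23717 to 25396 in the knockout. Without wild-type replicate 1 the neuronal mean differed by -0.09, the A plexins by -0.12 and class 6 by -0.04 between the genotypes. Class 5 stayed at -0.47, class 3 at 0.13, and the neuropilins were at 0.23 by their brightest probe sets. At all their other kept probe sets the neuropilins were lower in the knockout over the 6 arrays. Without wild-type replicate 1 those probe sets differed by -0.21 to 0.02. The part of neurons or of these other cells in the plexin and class 6 values was not tested.

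Of the B plexins, receptors of class 4 semaphorins, Plxnb1 and Plxnb2 were lower and Plxnb3 higher. Plxnb2 read 8.70, 8.14 and 8.47 in the wild type and 8.0, 8.18 and 8.08 in the knockout, with overlap only between wild-type replicate 4 and knockout replicate 4, and differed by -0.35 (SE 0.15). Plxnb1 differed by -0.21 (SE 0.12) with overlap. At a dimmer probe set Plxnb1 read 6.32, 6.03 and 6.25 in the wild type and 5.92, 5.93 and 6.03 in the knockout, so that its genotypes touched at 2 decimals, and differed by -0.24 (SE 0.10; limma, unadjusted p = 0.0475, adjusted p = 0.511). Plxnb3, which binds Sema5a, differed by 0.14 (SE 0.11), at a probe set that may also match other transcripts.

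Plxnc1, the receptor of Sema7a, showed the widest disagreement between probe sets. Its brightest read 9.36, 8.93 and 8.96 on wild-type replicates 1, 4 and 5 and 8.81, 9.03 and 9.04 on knockout replicates 2, 4 and 5, a difference of -0.13 (SE 0.14) with overlap. Its 4 other kept probe sets were all higher in the knockout, and none of them overlapped. The next brightest read 7.42, 7.82 and 7.62 in the wild type and 7.91, 8.16 and 7.89 in the knockout, a difference of 0.37 (SE 0.13).

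The 3 dimmer probe sets of Plxnc1 differed by 0.56 (SE 0.21), 0.94 (SE 0.26) and 0.68 (SE 0.25). The largest of these read 3.56, 4.43 and 3.60 in the wild type and 4.62, 4.82 and 4.98 in the knockout, where wild-type replicate 4 came close to the knockout arrays. The probe set with 0.68 read 3.27, 4.02 and 3.24 in the wild type and 4.03, 4.04 and 4.50 in the knockout. Its genotypes nearly touched. Limma's unadjusted p for the 4 ranged from 0.0113 to 0.0364, with an adjusted p of 0.511 for each. Without wild-type replicate 1 they differed by 0.27, 0.36, 0.79 and 0.56 and the brightest by 0.01. The probe sets share 1 gene and the same 6 pools and are not independent of each other. The sources used here do not give their places along the transcript.

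Plxnd1, a receptor known from vessels and striatal projection neurons, differed by -0.13 (SE 0.15) because knockout replicate 5 read 4.82 and the other 5 arrays 5.23 to 5.34.

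Both neuropilins were higher at their brightest probe set and lower at all others. Nrp2, the co-receptor of Sema3f, read 8.76, 8.78 and 8.56 on wild-type replicates 1, 4 and 5 and 8.92, 8.89 and 8.84 on knockout replicates 2, 4 and 5. The genotypes did not overlap, and the log2 difference was 0.18 (SE 0.09, 95% interval -0.03 to 0.39). Its 3 other kept probe sets differed by -0.17, -0.25 and -0.23, each with overlap. Without wild-type replicate 1 these 3 differed by -0.07, 0.02 and -0.21. Nrp1, the co-receptor of Sema3a and also of vascular endothelial growth factor, read 8.19, 8.09 and 8.06 in the wild type and 8.11, 8.42 and 8.41 in the knockout, a difference of 0.20 (SE 0.11). Knockout replicate 2 lay among the wild-type arrays and the other 2 knockout arrays above them. The 3 other kept probe sets of Nrp1 differed by -0.29, -0.12 and -0.29, and by -0.11, 0.01 and -0.18 without wild-type replicate 1. The mean of all kept probe sets was therefore -0.12 for each neuropilin.

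Endothelial and pericyte markers, which bear on Nrp1 and Plxnd1, overlapped between the genotypes in sum. Of 12 listed, 9 were kept, and 5 of these were higher, with a median of 0.07. Pdgfrb (0.41, and -0.15 at a second probe set) and Pecam1 (0.39) were higher without overlap, 22.2% of the 9 against 16.4% of all genes. Pecam1 read 3.38 on wild-type replicate 1, 4.20 and 4.16 on replicates 4 and 5, and 4.27 to 4.32 in the knockout. Kdr (-0.15) and Flt1 (-0.29) were among the 4 lower, with overlap. The summed linear level of the list ran from 528 to 733 in the wild type and from 673 to 723 in the knockout, and Cdh5, Tie1 and Cspg4 were below the filter. Microglial markers had 5 of 12 kept, with a sum of 128 to 160 in the wild type and 150 to 161 in the knockout. Their part in the receptor values was not tested.

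**Figure D4:**
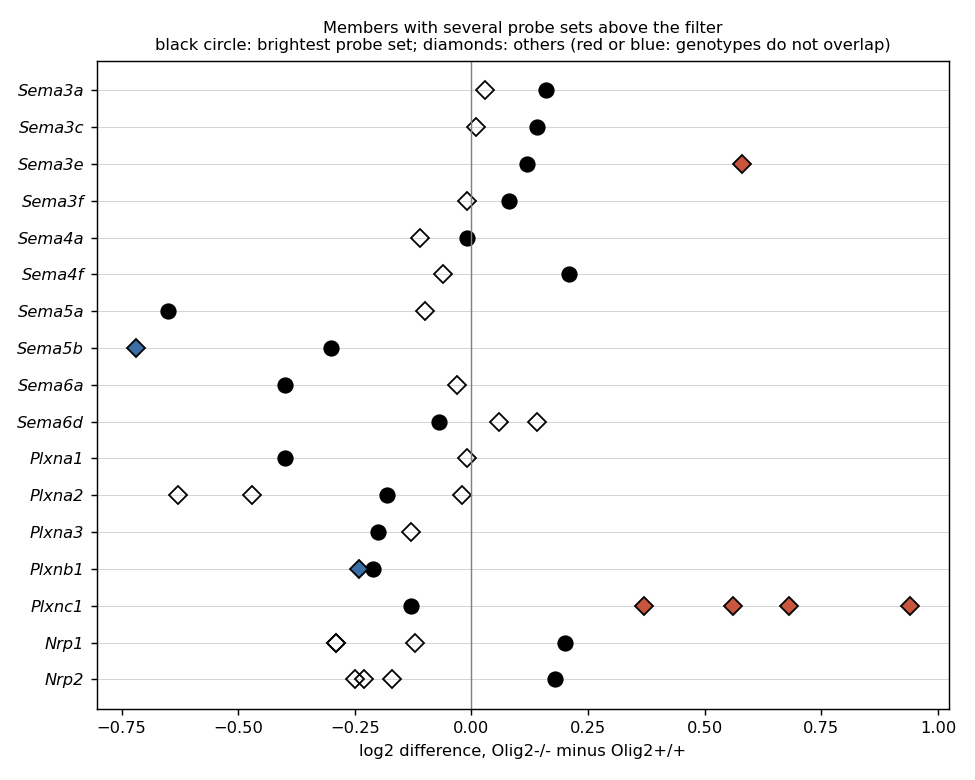
Log2 difference (Olig2-/- minus Olig2+/+, x axis) of each kept probe set for the 17 members with more than 1. Black circles are the brightest probe set of each gene and diamonds the others, filled red (higher) or blue (lower) where the genotypes do not overlap. For Plxnc1 the 4 diamonds lie from 0.37 to 0.94 and the circle at -0.13, and for both neuropilins the circle is alone on the right.

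Of the 17 members with more than 1 kept probe set, 6 had probe sets of opposite sign: Sema3f, Sema4f, Sema6d, Plxnc1, Nrp1 and Nrp2. Over the 55 kept probe sets, 37 were lower and 18 higher, and 16 separated the genotypes (29.1%, against 16.2% of all kept probe sets), 8 in each direction. Of these 16, Plxnc1 gave 4 and Sema5b 2.

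Some of the known ligand and receptor pairs, not all, are set side by side here by their brightest probe sets. Sema6a (-0.40) and its receptors Plxna2 (-0.18) and Plxna4 (-0.23) were all lower. Sema4d (-0.07) and Plxnb1 (-0.21), and Sema4c (-0.23) and Plxnb2 (-0.35), were lower too. So were Sema6d (-0.07) and Plxna1 (-0.40), and Sema7a (-0.10) and Plxnc1 (-0.13). Of these genes, Sema4d, Sema6d, Sema7a and Plxnc1 were higher without wild-type replicate 1. Sema3a (0.16) and Nrp1 (0.20), and Sema3f (0.08) and Nrp2 (0.18), were higher, while their plexins Plxna4 (-0.23) and Plxna3 (-0.20) were lower. Over the 6 arrays all other kept probe sets of both neuropilins were lower, and the mean over kept probe sets was -0.12 for each. Those other probe sets differed by -0.21 to 0.02 without wild-type replicate 1. Without wild-type replicate 1, Plxna4 differed by -0.01 and Plxna3 by -0.12. Without wild-type replicate 4, Sema3f differed by 0.02. Sema3e (0.12) and Plxnd1 (-0.13), and Sema5a (-0.65) and Plxnb3 (0.14), differed in sign. No pair was tested as such.

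Partners and effectors of semaphorin signalling held no gene past the threshold. The list held 43 genes, such as the collapsin response mediators (Dpysl and Crmp1), the Mical oxidases, guanine exchange factors of plexins and the co-receptors L1cam and Nrcam. The test took in 35 of them. Their median difference was -0.11, with 22 lower and 13 higher, and 6 separated the genotypes (17.1%, against 16.4% of all genes). The lowest p was that of the kinase Gsk3b, 0.86 higher at its brightest probe set, but its 6 kept probe sets ranged from -1.26 to 0.86. The GTPase Rhoa was 0.54 higher (0.47 at a second probe set), with overlap. Dpysl5 differed by -0.27 (0.10 at a second probe set) and Evl, an actin regulator of growth cones, by -0.44, with its 3 probe sets from -0.72 to -0.10. The mean over the list differed by -0.07, and by -0.01 without wild-type replicate 1.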

How the data were processed

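The deposited values are log2 expression levels per probe set on Affymetrix MOE430 2.0 arrays. Per the labels' series design text, the authors processed images with GCOS and MAS 5.0 and used GCRMA for quantile normalization, summary and the log2 step. The sources used here give no versions. GCRMA leaves a floor: 33.2% to 33.7% of values on each array lay within 0.03 of 2.27, so differences of dim probe sets are compressed. Equalised distributions hide a change of total RNA. The arrays' 64 control probe sets were left out, and array medians ran from 3.14 to 3.19.

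Probe sets were named from the platform annotation (34945 with 1 symbol, 932 with several, 9160 without a name here). All 78 member probe sets matched RefSeq (GRCm38.p6) by gene ID, with 0 symbols changed. Genotypes were compared with limma 3.58.1 in R 4.3.3 (lmFit, eBayes, two-sided, no block), with Benjamini-Hochberg adjustment over 22565 kept probe sets and a threshold of 0.05. The fit was also run on simulated arrays with known differences. Every member was named, with all arrays' values where the genotypes did not overlap or the unadjusted p was under 0.05, and the 4 partner genes of lowest p. Members, marker lists, tests and alternatives were chosen with earlier results of these data known. Alternatives were 2 other filters, 2 normalizations, other variance models, a replicate block, array weights, averaged probe sets and arrays left out. The choice to show Sema5a, Sema5b and Plxnc1 start regions followed their values.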

Additional observations from a re-analysis of the deposited data

How the results depend on the processing

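No alternative gave any probe set or gene an adjusted p under 0.05 in limma, and 0 members passed in each; the lowest adjusted p of a member was 0.217, that of Sema5a without knockout replicate 2. Sema3a, Sema3c, Sema3f, Sema4b, Sema4c, Sema4f, Sema4g, Sema5a, Sema5b, Sema6a, Plxna1, Plxna2, Plxna3, Plxna4, Plxnb1, Plxnb2 and Plxnb3 kept their direction in all 15 alternatives. With single arrays left out, Sema5a ranged from -0.85 to -0.44 and Sema5b from -0.36 to -0.22.

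The count of higher members ranged from 9 to 15 with single arrays left out (15 without wild-type replicate 1). That of members without overlap ranged from 11 to 14 (39.3% to 50%), while 22.6% to 34.9% of all genes had no overlap. The 14 came without knockout replicate 4, against 25.8% of all genes. The share over all genes was thus also above the 16.4% of the full data each time. The count at an unadjusted p under 0.05 ranged from 1 to 5. The median difference ranged from -0.19 to 0.01. Leaving out knockout replicate 2 together with wild-type replicate 4, 16 members had no overlap (57.1%, against 46.7% of all genes) and 5 had an unadjusted p under 0.05 (17.9%, against 10.5%). That last count was 9 with array weights (32.1%, against 13% of all genes) and 5 with the mean of probe sets (17.9%, against 9.06%). The cause was not tested.

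Replicate numbers 4 and 5 are shared by the genotypes with no stated link to a litter or day. Knockout and wild-type deviations correlated at -0.29 for number 4 and 0.32 for number 5. Between arrays of different number they ranged from -0.36 to 0.38. The highest of all was the 0.38 of knockout replicate 2 with wild-type replicate 4. With a replicate block, which leaves only these 4 arrays to inform the difference, 15 members were higher (53.6%, against 56.8% of all genes), 5 had an unadjusted p under 0.05 (17.9%, against 5.48%) and the median was 0.00.

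Some signs turned, and the cause was not tested. In the fit with the replicate block these were Sema3e (-0.02), Sema4a (0.02), Sema4d (0.11), Sema6b (0.01), Sema6c (0.00), Sema6d (0.05), Sema7a (0.20) and Plxnc1 (0.08). With the mean of probe sets they were Sema6d (0.04), Plxnc1 (0.48), Nrp1 (-0.12) and Nrp2 (-0.12). Array weights turned Sema6d (0.07) and Sema7a (0.13), and repeated quantile normalization and median centring turned Sema4a (0.00 in each). Leaving out both arrays gave Sema3e -0.02 and Sema7a 0.03. With single arrays left out, Sema3e ranged from -0.02 to 0.21, Sema4a from -0.09 to 0.06, Sema4d from -0.21 to 0.06, Sema6b from -0.18 to 0.00, Sema6d from -0.20 to 0.06, Sema7a from -0.26 to 0.06, Plxnc1 from -0.20 to 0.01 and Plxnd1 from -0.22 to 0.04.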
